A study of Mus musculus with 32 samples.

Results

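The nuclear-encoded genes of the respiratory chain were examined for binding of HNF4A, a nuclear receptor of the intestinal epithelium, in jejunal preparations from mice given a high-fat meal (HFM). The members were the protein-coding genes of GENCODE M1 on chromosomes 1 to 19 and X with a symbol starting Nduf, Uqcr, Cox4i, Cox5, Cox6, Cox7, Cox8 or Atp5, together with Sdha, Sdhb, Sdhc, Sdhd and Cycs. They numbered 92 gene entries with 91 symbols, since Ndufb8 had 2 gene models, of 22350 protein-coding genes on these chromosomes. HNF4A peaks of 8 libraries that shared at least 1 bp were merged, and a merged site was assigned to a member if it touched the gene body or the 5 kb on either side. This gave 164 of 45552 merged sites. A site or gene was counted for a condition when a site was called in at least 2 of its 4 peak lists.

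Mice were male C57BL/6J, 10 to 12 weeks old, and either germ-free (GF+HFM) or formerly germ-free and colonized with a conventional microbiota for 14 days (CV+HFM). Both groups were taken 2 hours after gavage with a chicken egg yolk emulsion, and no group in the lists used here went without the meal. Each group had 4 HNF4A ChIP-seq libraries from unsorted jejunal cells, which hold mainly villus epithelium with some crypts and some villus mesenchyme. The comparison asks whether HNF4A occupancy after a fat meal differed between mice without and with microbes.

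The respiratory chain passes electrons from NADH and succinate through complexes I, II, III and IV to oxygen, and complex V uses the resulting proton gradient to make ATP. Nearly all subunits are encoded in the nucleus, and their promoters are known targets of NRF1, GABPA, YY1 and the estrogen-related receptors. HNF4A is known as a regulator of enterocyte differentiation and of lipid metabolism, and binds a direct repeat of half-sites close to AGGTCA.

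The sequences below are examples of member sites with an exact HNF4 motif. Others, among them sites of Atp5g1, Atp5l and Atp5o, are not printed. The motifs searched on both strands were CAAAGTCCA and CAAAGGTCA, which are shown in capitals in the orientation in which they lie. Each stretch is the interval covered by every list that called the site, read from the mm9 genome. Atp5h, a stator subunit of complex V, is shown because its site was called in all 8 lists. Cox6a2, the muscle isoform of a complex IV subunit, had the motif in all 3 of its sites, of which 2 are printed. Ndufa11, a membrane-arm subunit of complex I, is the sole member whose start lay in a GF+HFM site with an exact motif in the 200 bp about its midpoint.
Atp5h upstream, chr11:115282469-115282697, plus strand: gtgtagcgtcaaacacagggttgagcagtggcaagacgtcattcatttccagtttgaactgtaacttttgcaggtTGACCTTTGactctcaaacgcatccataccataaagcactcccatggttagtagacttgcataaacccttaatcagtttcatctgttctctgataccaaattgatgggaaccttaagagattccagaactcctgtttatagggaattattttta
Cox6a2 upstream, chr7:135351769-135351978, plus strand: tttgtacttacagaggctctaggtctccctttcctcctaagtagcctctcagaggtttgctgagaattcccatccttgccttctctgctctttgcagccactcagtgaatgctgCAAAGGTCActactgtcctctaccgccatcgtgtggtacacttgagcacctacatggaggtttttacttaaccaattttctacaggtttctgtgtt
Cox6a2 far upstream, chr7:135353489-135353644, plus strand: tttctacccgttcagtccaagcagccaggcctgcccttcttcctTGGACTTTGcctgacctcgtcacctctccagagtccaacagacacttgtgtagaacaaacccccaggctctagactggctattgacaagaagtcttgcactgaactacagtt
Ndufa11 start, chr17:56857201-56857461, plus strand: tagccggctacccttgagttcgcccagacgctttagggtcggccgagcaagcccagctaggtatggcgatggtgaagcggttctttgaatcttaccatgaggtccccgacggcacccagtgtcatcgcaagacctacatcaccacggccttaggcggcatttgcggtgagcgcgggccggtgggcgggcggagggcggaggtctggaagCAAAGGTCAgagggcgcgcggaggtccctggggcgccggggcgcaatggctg

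The share of members with a site was above that of protein-coding genes as a whole in GF+HFM and close to it in CV+HFM. In GF+HFM 65 of the 92 entries (70.7%) had a site, against 46.5% of all protein-coding genes. In CV+HFM 33 entries (35.9%) had one, against 33.7% of all genes. All 33 were among the 65, so 32 entries (34.8%) had a GF+HFM site and no CV+HFM site, against 12.9% of all genes. The reverse held for 0 entries and for only 9 of all 22350 genes. Of the members with a GF+HFM site 50.8% also had a CV+HFM site, against 72.3% of all genes with one. Members had shorter windows than genes in general, with a median of 17333 bp against 25428 bp. Members held 4.90 GF+HFM sites and 2.18 CV+HFM sites per 100 kb of window, against 2.12 and 1.14 for all protein-coding genes. The density was thus higher at members in both conditions, but windows ranged up to 257290 bp at members and up to 4444882 bp at all genes. The part of window length in this difference was not tested. The 77 genes of mitochondrial ribosomal proteins, with a median window of 17654 bp, held 92 GF+HFM and 46 CV+HFM sites. Their density was not computed. Without CV+HFM replicate 1 the CV+HFM count was 21 members.

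These counts followed the length of the lists. The 4 GF+HFM lists held 31061 to 36846 peaks, and the CV+HFM lists held 29345, 9206, 21033 and 4533 peaks in replicates 1 to 4, so that list length and condition cannot be told apart. Members with a peak numbered 67, 58, 59 and 62 in the GF+HFM libraries and 53, 21, 35 and 9 in the CV+HFM libraries. The groups did not overlap, and neither did those of all genes, of which 44.0% to 48.3% had a peak in a GF+HFM library and 11.5% to 41.8% in a CV+HFM library. The share of members with a peak was 1.51, 1.43, 1.44 and 1.51 times that of all genes in the GF+HFM libraries, and 1.38, 1.05, 1.09 and 0.850 times in CV+HFM replicates 1 to 4. When each list was cut to its 4533 widest peaks, the length of the shortest, 12 members (13.0%) had a GF+HFM site and 12 (13.0%) a CV+HFM site, against 13.9% and 13.7% of all genes. The higher share at members was thus seen with the deposited lists and not among the widest peaks of equal number.

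**Figure D1:**
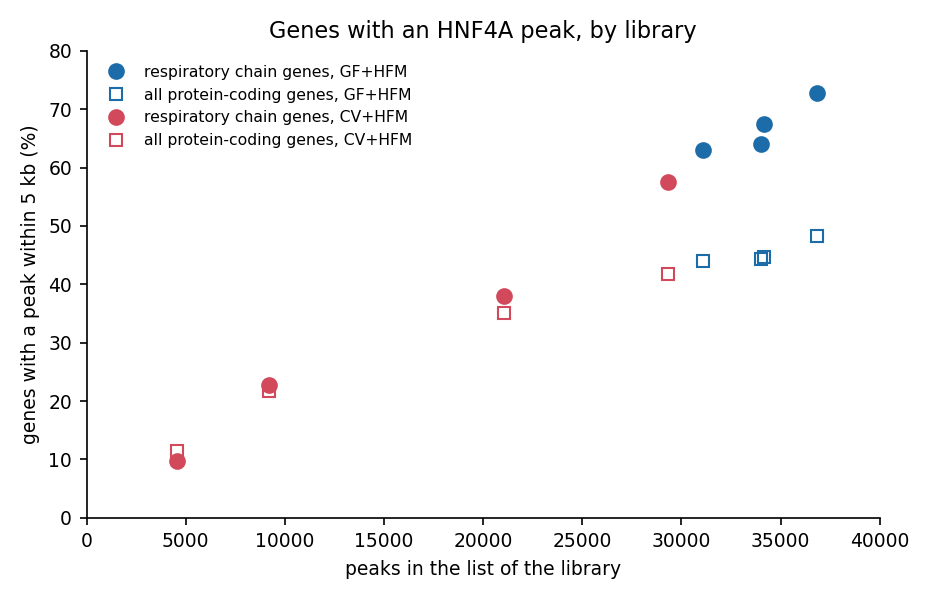
Percentage of genes with an HNF4A peak in the gene body or 5 kb either side (y axis) against the number of peaks in the library's list (x axis), with 1 point per library. Filled circles are the 92 respiratory chain entries and open squares all 22350 protein-coding genes. The circles lie at 57.6% to 72.8% in the 5 longest lists, where the squares lie at 41.8% to 48.3%, and at 9.78% to 38.0% in the 3 shortest, where the squares lie at 11.5% to 35.0%.

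As for the lists as a whole, coordinates on the 22 chromosomes compared fitted the chromosome lengths of mm9. Peaks on 9 other sequence names, absent from the reference used, were not compared. Of 10 enterocyte marker genes 10 had a GF+HFM site and 9 a CV+HFM site. Of 8 marker genes of immune, endothelial and mesenchymal cells, 4 had a GF+HFM site and 2 a CV+HFM site. A peak is not RNA, and the part of cell composition in the calls at members was not tested. The lists give positions without heights or read counts, so the depth behind a call is unknown.

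Of the 164 member sites, 110 (67.1%) were called in at least 2 GF+HFM lists, against 75.7% of all merged sites. In CV+HFM 49 (29.9%) were called in at least 2 lists, against 40.8% of all merged sites, and all 49 were also GF+HFM sites. Thus 44.5% of the GF+HFM sites at members were CV+HFM sites, against 53.4% of those at all protein-coding genes. At all protein-coding genes, too, nearly every CV+HFM site was a GF+HFM site, with 12966 of 13016. Without CV+HFM replicate 1 the CV+HFM sites at members numbered 27, and without replicate 3 they numbered 28. Calls in a single list made up 48 of the 164 sites (29.3%), against 6983 of the 32072 sites at all protein-coding genes. Of the 110 GF+HFM sites the GF+HFM libraries each called 91.8%, 80.9%, 81.8% and 83.6%, and CV+HFM replicates 1 to 4 called 69.1%, 24.5%, 46.4% and 8.18%. Because these sites were chosen by their calls in the GF+HFM lists, the higher shares in GF+HFM are in part built in. In every library the share at members was below that of the GF+HFM sites at all genes, chosen in the same way. The latter was 92.2%, 81.5%, 87.4% and 88.5% in GF+HFM and 73.6%, 25.4%, 56.3% and 11.3% in CV+HFM.

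The contrast between conditions gave no member site past a corrected threshold. Fisher's exact test on the number of lists calling a site, 2-sided and adjusted by Benjamini-Hochberg over all 45552 sites, called 0 sites, and 1269 sites (2.79%) reached the smallest p that 4 against 4 lists allow, 0.0286. Their adjusted p was 0.824. Those 1269 sites were called in all GF+HFM lists and in no CV+HFM list, and 3 of them were member sites (1.83% of 164). Tested by gene, 0 of 22350 genes passed and 260 (1.16%) had a peak in all GF+HFM lists and none in CV+HFM, among them 3 members (3.26% of 92). Leaving out CV+HFM replicate 1 raised the member sites called in all GF+HFM and no CV+HFM lists from 3 to 19 (11.7%), and all such sites from 1269 to 4871 (10.9%). Leaving out GF+HFM replicate 2, 3 or 4 or CV+HFM replicate 3 gave 7, 5, 8 and 6 member sites (4.49%, 3.12%, 5.23% and 3.66%), against 5.60%, 4.04%, 3.95% and 4.21% of all sites. A difference in calls was not detectable for single sites or genes with this number of lists.

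The 3 sites belonged to Uqcr10, Cox7b and Atp5j2, which encode small subunits of complexes III, IV and V. The Uqcr10 site lay over the gene start at chr11:4603672-4604422. The Cox7b site lay in intron 1 at chrX:103212377-103212739, with its midpoint 1519 bp from the start. The Atp5j2 site lay in intron 3 at chr5:145947098-145947513, with its midpoint 5626 bp from the start. All 3 were called in each of the 4 GF+HFM lists and in none of the 4 CV+HFM lists, so that the groups did not overlap. Neither intron site held an exact HNF4 motif in its shared interval. Forms with 1 mismatch were found in both and are shown in capitals, and the pair in Atp5j2 overlapped. The interval shared at Uqcr10 was longer than 300 bp and is not printed.
Cox7b intron, chrX:103212514-103212668, plus strand: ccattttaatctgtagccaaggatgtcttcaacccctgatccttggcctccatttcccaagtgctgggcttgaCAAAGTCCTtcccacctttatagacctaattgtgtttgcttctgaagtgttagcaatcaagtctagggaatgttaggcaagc
Atp5j2 intron, chr5:145947269-145947390, plus strand: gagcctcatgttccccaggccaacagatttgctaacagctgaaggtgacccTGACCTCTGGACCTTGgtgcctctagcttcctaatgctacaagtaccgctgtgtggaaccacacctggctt

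In the opposite direction 1 member site (0.610%) was called in more CV+HFM than GF+HFM lists, against 2.86% of all merged sites. It lay in intron 4 of Cox5a, a matrix-side subunit of complex IV, at chr9:57379899-57380114, and was called in CV+HFM replicate 1 alone. Cox5a also had a site over its start at chr9:57368752-57369597, called in all GF+HFM lists and in CV+HFM replicates 1 and 3.

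Across the complexes the share of genes with a GF+HFM site ranged from 59.5% in complex I to 100% in complex II. In complex I, the NADH dehydrogenase, 22 of 37 entries had a GF+HFM site and 12 a CV+HFM site. In complex II, succinate dehydrogenase, all 4 genes had both. In complex III 7 of 8 genes had a GF+HFM site and 2 a CV+HFM site, and in complex IV, cytochrome c oxidase, 11 of 18 and 4 did. In complex V, the ATP synthase, 13 of 15 had a GF+HFM site and 8 a CV+HFM site. The groups are small, so a single gene moves the share of complex III by 12.5 percentage points and that of complex II by 25.0. Differences between complexes were not tested.

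**Figure D2:**
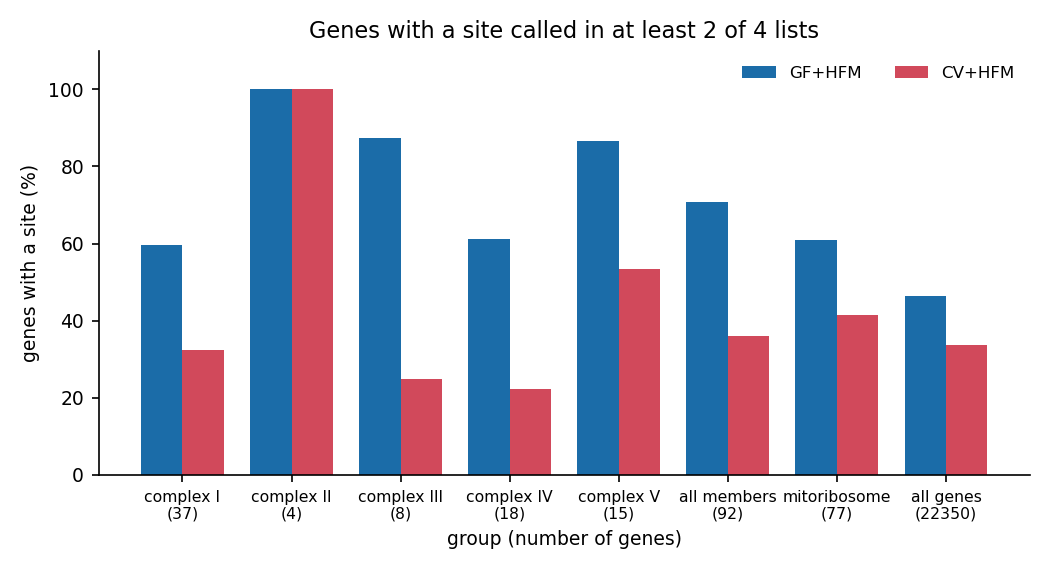
Percentage of genes with a site called in at least 2 of 4 lists (y axis) in GF+HFM (blue) and CV+HFM (red), by complex, for all members, for mitochondrial ribosomal protein genes and for all protein-coding genes, with the number of genes in brackets. Bars carry no error since each is a count over genes; complex II stands at 100% in both conditions, while complexes III and IV fall to 25.0% and 22.2% in CV+HFM.

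In complex I, 5 of the 6 core subunits described had a GF+HFM site and 3 a CV+HFM site. Ndufs1, the largest iron-sulfur subunit, had a site over its start, shared with the start of Eef1b2, at chr1:63223205-63223874, which was called in all GF+HFM lists and in CV+HFM replicates 1, 2 and 3. Ndufs7, which lies near the quinone site, had a downstream site with the same calls, which also lay over the starts of Gamt and Dazap1. Ndufv1, the NADH-binding subunit, had a site downstream of its end called in all 8 lists and a site over its start called in 3 GF+HFM lists and in CV+HFM replicate 1. The remaining 3 had no CV+HFM site. Ndufs3 had a site in 2 GF+HFM lists and none in CV+HFM. Ndufv2, which carries an iron-sulfur cluster, had an intron 1 site in 3 GF+HFM lists and in CV+HFM replicate 3. Ndufs8 had 2 sites, each in a single GF+HFM list.

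Among the accessory subunits, the start sites of Ndufs6 and Ndufa2 were called in all GF+HFM lists and in CV+HFM replicates 1, 2 and 3. That of Ndufa5 was called in all GF+HFM lists and in CV+HFM replicates 1, 3 and 4. Ndufab1, the mitochondrial acyl carrier protein, had 5 sites, of which 4 were called in all GF+HFM lists, and its intron 2 site was called also in CV+HFM replicates 1, 2 and 3. No merged site was found at 9 complex I entries, which were Ndufa1, Ndufa3, Ndufa9, Ndufb5, both models of Ndufb8, Ndufb9, Ndufb11 and Ndufs5. Of the 4 assembly factors, Ndufaf2, Ndufaf3 and Ndufaf4 had a GF+HFM site and Ndufaf1 had no site. The start site of Ndufaf4 was called in all GF+HFM lists and in CV+HFM replicates 1, 2 and 3.

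Complex II had 13 sites, 8 of them GF+HFM sites and 5 CV+HFM sites. Sdha, the flavoprotein that oxidizes succinate, had a start site called in all GF+HFM lists and in CV+HFM replicates 1 and 3. A second site of Sdha, at chr13:74452975-74455419 and 5505 bp beyond the end of the gene at its midpoint, was called in all 8 lists and also lay over the start of Pdcd6. Sdhb, the iron-sulfur subunit, had 5 sites, of which 1, in intron 1 and with its midpoint 1344 bp from the start, was called in all GF+HFM lists and in CV+HFM replicates 1 and 3. Sdhc and Sdhd, the membrane anchors, each had a site called in all GF+HFM lists and in CV+HFM replicates 1, 2 and 3, over the start of Sdhc and in intron 1 of Sdhd. All 4 genes of this complex, which also belongs to the citric acid cycle, thus had a site in every GF+HFM list and in CV+HFM replicates 1 and 3.

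In complex III the 3 core proteins each had a GF+HFM site and 1 of them a CV+HFM site. Uqcrc1 had a site 2630 bp upstream of its start called in all GF+HFM lists and in CV+HFM replicate 1. The start site of Uqcrc2 was called in all GF+HFM lists and in CV+HFM replicates 1 and 3, and that of Uqcrfs1, the Rieske iron-sulfur protein, in GF+HFM replicates 1, 2 and 3 alone. Uqcrq had 5 sites, and 1 of them was called in all 8 lists, at chr11:53236258-53237294. That site was 4648 bp beyond the end of Uqcrq at its midpoint and covered the start of Leap2, the gene of a peptide made in liver and intestine. Cycs, the electron carrier cytochrome c, had a single site downstream of its end, called in all GF+HFM lists and in CV+HFM replicate 1. Uqcr11 had no site.

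In complex IV some subunits have isoforms known for expression in heart, skeletal muscle, lung or testis beside a widespread one, and calls at both kinds were counted. Of the 7 tissue-restricted isoforms (Cox4i2, Cox6a2, Cox6b2, Cox7a1, Cox7b2, Cox8b and Cox8c), 5 had a GF+HFM site and 3 a CV+HFM site, with 7 sites called in all GF+HFM lists. Of their 6 counterparts (Cox4i1, Cox6a1, Cox6b1, Cox7a2, Cox7b and Cox8a), 4 had a GF+HFM site and 0 a CV+HFM site, and 1 site, that of Cox7b, was called in all GF+HFM lists. The difference between the 2 sets was not tested, and it did not run one way, since Cox4i1 and Cox7b were called in more lists than Cox4i2 and Cox7b2, and Cox8a and Cox8c in 2 GF+HFM lists each. Cox6a2 had 3 sites called in all GF+HFM lists, 2 of them also in CV+HFM replicates 1 and 3 and the other in replicate 1. Cox6a1 had a site in GF+HFM replicates 1 and 4, which lay over the starts of Gatc and Triap1. Cox7a1 had a start site called in all GF+HFM lists and in CV+HFM replicates 1 and 3, whereas the single site of Cox7a2 was called in GF+HFM replicate 3 alone. Cox6b2 had a site 2477 bp beyond its end called in all 8 lists, at chr7:4700415-4701424, and both sites of Cox6b1 were called in 2 GF+HFM lists, 1 of them also in CV+HFM replicate 1. Cox8b had a site in all GF+HFM lists and in CV+HFM replicate 1, Cox8c in GF+HFM replicates 3 and 4, and Cox8a in GF+HFM replicates 1 and 3. Cox4i1 was called in GF+HFM replicate 2 alone, and Cox4i2, Cox7b2 and Cox7c had no site. The window of a gene can hold sites of its neighbours, and whether the muscle-type genes are expressed in these preparations was not tested here.

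Complex V held 50 sites, 33 of them GF+HFM sites. Of the 5 genes of the F1 part, which carries out ATP synthesis, 4 had a GF+HFM site and 3 a CV+HFM site. Atp5b, the catalytic beta subunit, had 6 sites, of which 2 were called in all GF+HFM lists and in CV+HFM replicates 1, 2 and 3, with midpoints 383 bp upstream of the start and 1482 bp beyond the end. The other 4 were each called in a single GF+HFM list. Atp5c1, the central stalk subunit, had 3 sites called in all GF+HFM lists, of which that in intron 8 was called in CV+HFM replicates 1, 2 and 4. Atp5d had 5 sites, including 1 called in all 8 lists 3640 bp beyond its end. That merged site joined several peaks, and no base of it was covered by all 8 lists. Atp5a1, which pairs with Atp5b in the catalytic ring, had 3 sites called in 1 GF+HFM list each and so none that was counted. Of the genes for the membrane c-ring, Atp5g1 and Atp5g3 had GF+HFM and CV+HFM sites and Atp5g2 had no site. The Atp5g3 start site was called in all GF+HFM lists and in CV+HFM replicate 1.

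Atp5o, a stator subunit, had the most sites of any member, with 12, of which 9 were GF+HFM and 4 CV+HFM sites. Its gene model spans a window of 257290 bp, and 8 of the 12 sites lay in that body outside the exons and introns of its transcript with most exons. The start site of Atp5o was called in all GF+HFM lists and in CV+HFM replicate 1. Atp5h had an upstream site called in all 8 lists at chr11:115282238-115282910, the sequence printed first above. Atp5j had 2 sites called in all GF+HFM lists and in CV+HFM replicate 1, of which 1, in its intron 2, also covered the start of Gabpa, a regulator of respiratory genes. Atp5sl, whose symbol falls under the rule without naming a subunit, had a site called in all 8 lists that lay 3642 bp upstream and over the start of Gm7092. Atp5l-ps1 had no site.

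**Figure D3:**
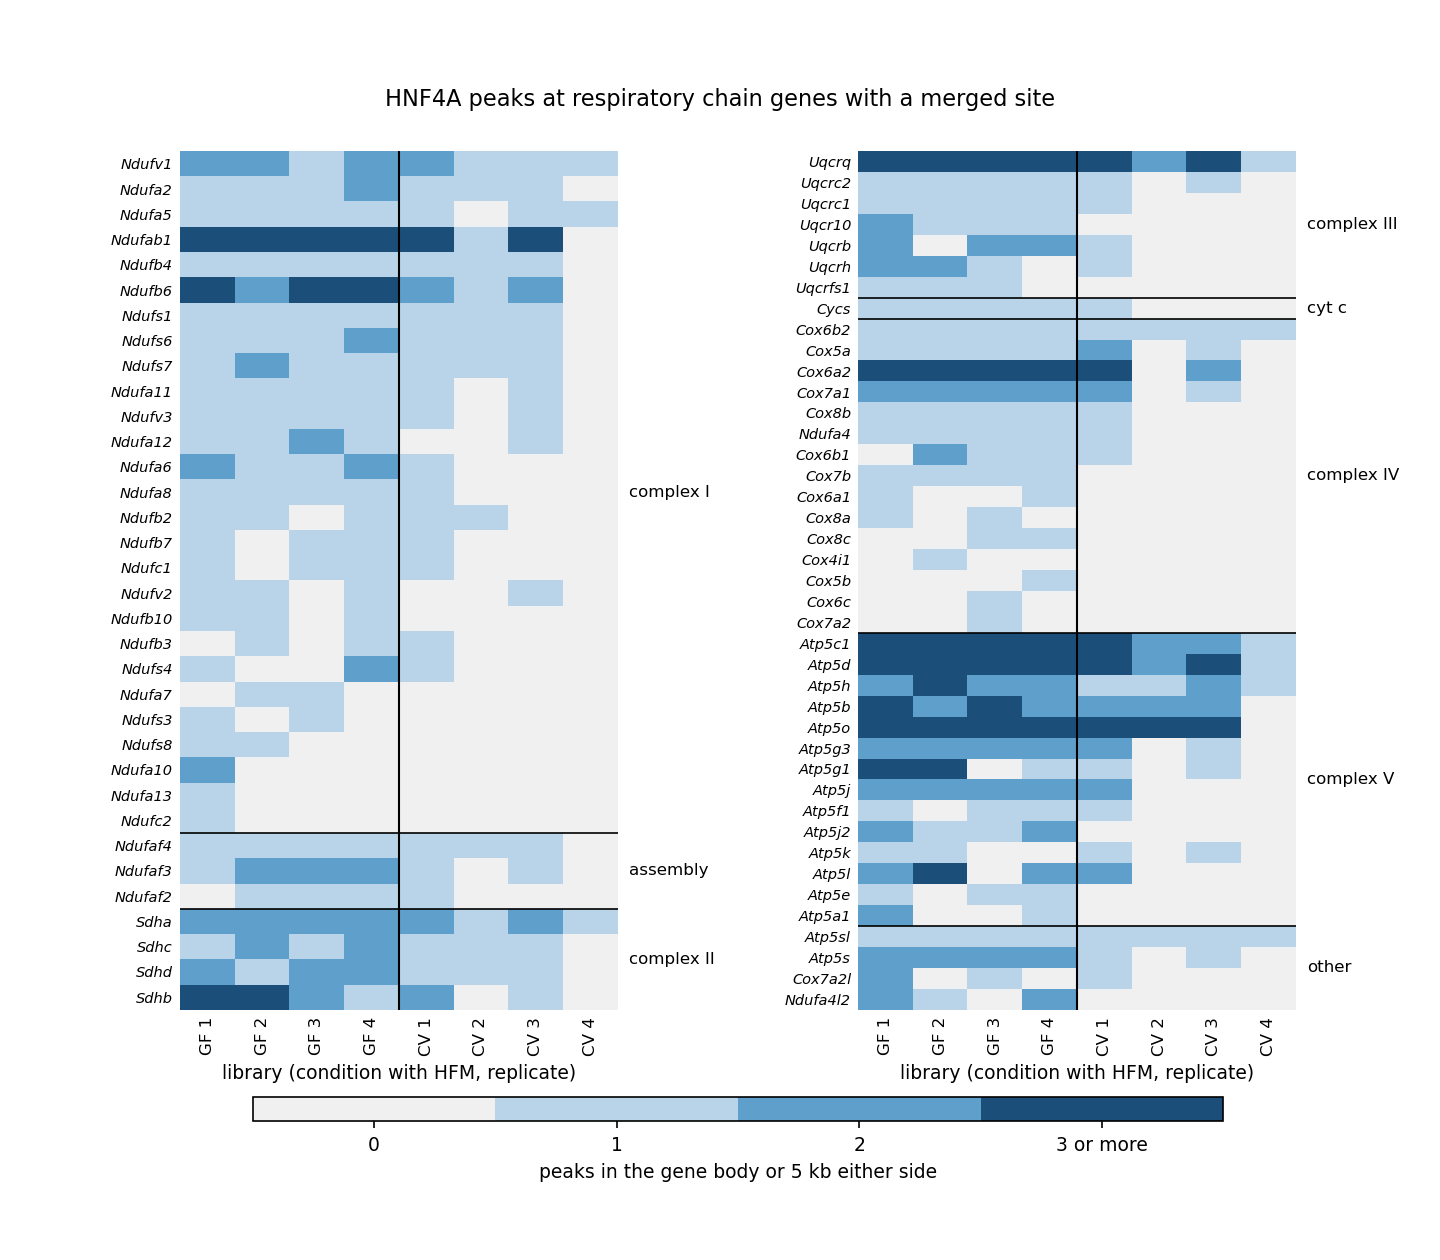
Number of HNF4A peaks in the gene body or 5 kb either side (colour, from 0 to 3 or more) for 75 member entries with a merged site (rows, grouped by complex) in each of the 8 libraries (columns, GF+HFM replicates 1 to 4 and CV+HFM replicates 1 to 4). The rightmost column, CV+HFM replicate 4, is filled in 9 rows, and rows of complex II are filled in all GF+HFM columns.

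Most member sites lay away from the start of the member. Of the 110 GF+HFM sites 26 lay over the start, 27 in an intron, 5 in an exon, 20 upstream and 26 downstream, with 5 in the long body of Atp5o and 1 in the body of Uqcrq outside the transcript with most exons. The start of 28.3% of members lay in a GF+HFM site, against 12.1% of all protein-coding genes, and that of 15.2% in a CV+HFM site, against 6.83%. The genes of mitochondrial ribosomal proteins had 29.9% and 15.6%. Of the GF+HFM sites over a start 14 of 26 (53.8%) were also CV+HFM sites, against 35 of 84 (41.7%) elsewhere. No start site was called in all 8 lists. The 7 sites that were, 4.27% of the 164 against 7.56% of all merged sites, lay upstream (2) or downstream (5) of the member, and 3 of them covered the start of another gene. Of the member sites that did not cover the member's own start, 12 covered that of another protein-coding gene, so that a call in the window need not belong to the respiratory gene.

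**Figure D4:**
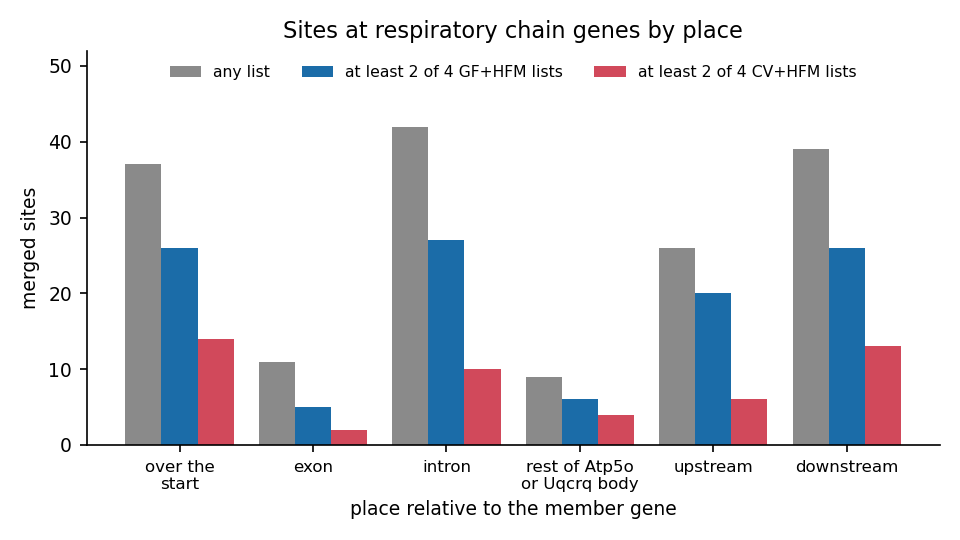
Number of merged sites at members (y axis) by place relative to the member gene (x axis), for sites in any list (grey), in at least 2 of 4 GF+HFM lists (blue) and in at least 2 of 4 CV+HFM lists (red). Introns, downstream flanks and starts hold 27, 26 and 26 of the GF+HFM sites.

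An exact HNF4 motif lay within the 200 bp about the midpoint of 14 of 110 GF+HFM sites at members (12.7%, Wilson 95% interval 7.73% to 20.2%), against 9.64% of all GF+HFM sites. Among merged sites, whether or not counted for GF+HFM, 15 of 164 at members (9.15%) held one, against 9.16% of all on these chromosomes. Over the start of a member 1 of 26 GF+HFM sites held one (3.85%). Over the start of any protein-coding gene 2 of 37 GF+HFM sites at members did (5.41%), and over no gene start 12 of 73 (16.4%). For all GF+HFM sites the shares were 2.63% over the start of any protein-coding gene and 10.2% over none. With 1 mismatch allowed, the shares were 50.0% at members and 48.1% at all GF+HFM sites. Sites of GF+HFM that were not CV+HFM sites held an exact motif in 11.5% at members and 8.73% overall.

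The promoters, taken as 250 bp before to 50 bp after the annotated start, held other motifs. Neither exact HNF4 motif was found in the 92 member promoters, against 0.456% of all protein-coding promoters for CAAAGTCCA and 0.376% for CAAAGGTCA. With shares this low a count of 0 does not set the members apart. The 77 promoters of mitochondrial ribosomal protein genes also held neither. The NRF1 motif GCGCANGCG was found in 18 member promoters (19.6%) against 8.03% of all. The YY1 motif AANATGGCG was found in 8 (8.70%) against 3.02%, and the ETS motif CCGGAAGT, which GABPA binds, in 6 (6.52%) against 4.70%. In the promoters of mitochondrial ribosomal protein genes the shares were 16.9% for NRF1, 13.0% for YY1 and 13.0% for ETS. Member promoters were thus above that list for NRF1 and below it for YY1 and ETS, and these differences were not tested. A higher share of NRF1 or YY1 motifs than in all promoters was therefore not particular to the members. The ESRRA motif TNAAGGTCA was found in 4 member promoters (4.35%), against 1.07% of all and 0 of the 77 of mitochondrial ribosomal protein genes. The 4 members were Atp5g3, Ndufb4, Ndufs1 and Sdhd, and in all but Ndufb4 the start lay in a GF+HFM site. That motif shares the letters AAGGTCA with the HNF4 motif CAAAGGTCA, so that a match can also be an HNF4 form with 1 or more mismatches. The median GC content was 56.0% in member promoters and 55.3% in all, and the median number of CG pairs was 17.0 and 11.0. The 3 promoters that held an ESRRA motif under a start site are printed in the direction of transcription, with the ESRRA, NRF1 and ETS motifs in capitals.
Atp5g3 promoter, chr2:73749334-73749633, minus strand: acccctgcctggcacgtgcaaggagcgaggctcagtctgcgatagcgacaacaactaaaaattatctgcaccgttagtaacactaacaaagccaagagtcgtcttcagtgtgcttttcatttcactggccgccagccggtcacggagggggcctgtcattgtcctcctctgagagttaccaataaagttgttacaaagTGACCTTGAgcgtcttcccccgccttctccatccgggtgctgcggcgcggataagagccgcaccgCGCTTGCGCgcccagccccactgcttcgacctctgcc
Ndufs1 promoter, chr1:63223347-63223646, minus strand: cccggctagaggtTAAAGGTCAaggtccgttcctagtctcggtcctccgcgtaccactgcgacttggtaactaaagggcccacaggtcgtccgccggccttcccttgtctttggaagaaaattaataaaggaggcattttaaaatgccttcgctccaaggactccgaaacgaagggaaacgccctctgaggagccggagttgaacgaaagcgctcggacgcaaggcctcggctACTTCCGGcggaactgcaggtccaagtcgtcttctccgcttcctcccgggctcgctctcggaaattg
Sdhd promoter, chr9:50411905-50412204, minus strand: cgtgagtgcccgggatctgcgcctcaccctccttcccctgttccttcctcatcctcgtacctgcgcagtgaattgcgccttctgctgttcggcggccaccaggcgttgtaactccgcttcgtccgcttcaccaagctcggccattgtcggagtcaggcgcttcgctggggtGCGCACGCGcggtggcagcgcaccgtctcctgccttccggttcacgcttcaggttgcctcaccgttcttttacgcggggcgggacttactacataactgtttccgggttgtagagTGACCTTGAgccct

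The width of a peak is the one graded value in the lists. At the 3445 sites found in every list, widths were ranked library by library, and the ranks were turned into normal scores and compared with limma. Of these 4 sites (0.116%) passed an adjusted p of 0.05, all narrower in rank in CV+HFM, and 0 of the 7 member sites did. Beside these, 398 sites and 1 member site had an unadjusted p under 0.05. Over all sites 21 passed when CV+HFM replicate 1 was left out and 14 when GF+HFM replicate 2 was, and 0 passed when any of CV+HFM replicates 2 and 3 or GF+HFM replicates 1, 3 and 4 was. No member site passed in any of these. The member site was that downstream of Sdha. Its width was 1361, 1229, 1373 and 2365 bp in the GF+HFM libraries and 1170, 245, 456 and 240 bp in the CV+HFM libraries. Its percentile among the 3445 shared sites of the library was 97.6, 98.7, 94.0 and 99.4 in the germ-free group and 97.2, 54.4, 58.6 and 81.3 in the colonized group. Among all peaks of the library it was 99.7, 99.8, 99.1 and 99.9 in the former and 99.6, 76.0, 87.3 and 85.7 in the latter. On both scales CV+HFM replicate 1 fell within the range of the GF+HFM libraries and the others below it. The difference in normal score, CV+HFM minus GF+HFM, was -1.29 ± 0.43 (SE), with an adjusted p of 0.322 by limma, and did not pass the test.

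The other 6 sites differed by less. The Atp5sl site had percentiles of 92.6 to 99.7 for GF+HFM and of 81.6 to 96.5 for CV+HFM, with a difference of -0.58 ± 0.40 (SE). The Atp5h site lay at 16.2 to 23.2 in GF+HFM and spread from 10.2 to 83.6 in CV+HFM, and its difference of 0.59 ± 0.44 (SE) was positive. The Uqcrq site had a difference of -0.02 ± 0.45 (SE), the Cox6b2 site of -0.49 ± 0.44, the Atp5d site of -0.96 ± 0.53 and the Ndufv1 site of 0.44 ± 0.46. At the Atp5d site no base was covered by every list, so its widths need not come from the same peak. The score was lower in CV+HFM at 5 of 7 member sites, with a median of -0.49, and at 1634 of all 3445 sites, with a median of 0.04.

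**Figure D5:**
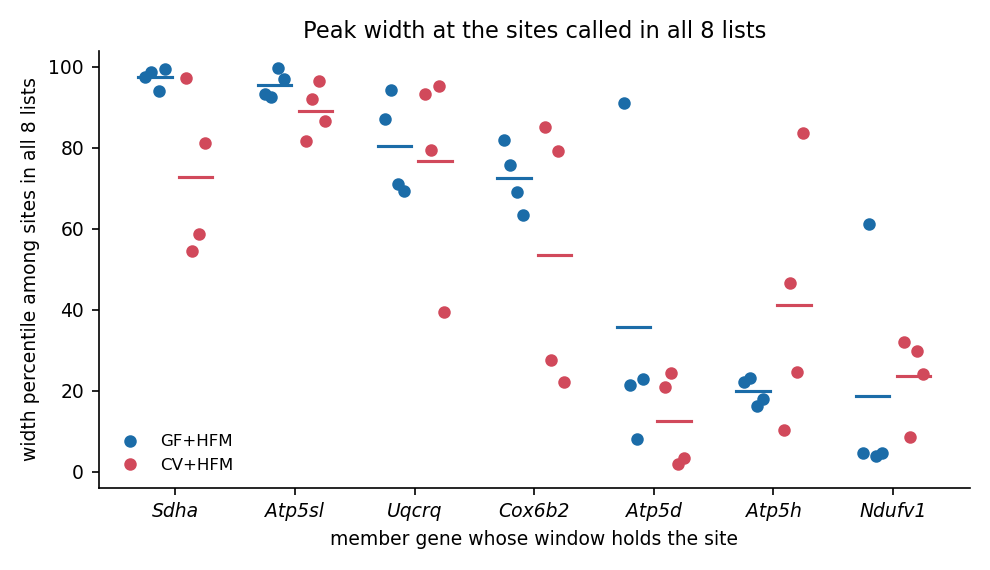
Percentile of peak width among the 3445 shared sites of the same library (y axis) for the 7 member sites called in all 8 lists (x axis, by the member whose window holds the site), with 1 point per library and a line at the mean of 4. GF+HFM is blue and CV+HFM red; at Sdha the GF+HFM points lie at 94.0 to 99.4 and 3 of the 4 CV+HFM points below them.

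Related gene lists gave the following counts, in which no gene passed the test by gene. Of 26 further respiratory chain genes outside the rule, mostly assembly factors with Cyc1 of complex III, 20 had a GF+HFM site and 13 a CV+HFM site. Of 12 regulators of mitochondrial biogenesis all 12 had a GF+HFM site and 7 a CV+HFM site. Of 13 citric acid cycle genes 11 and 8 did, and of 15 genes of beta-oxidation and the electron transfer flavoprotein 15 and 12 did. Of 77 mitochondrial ribosomal protein genes, whose median window of 17654 bp is close to that of the members, 47 (61.0%) had a GF+HFM site and 32 (41.6%) a CV+HFM site. The members, at 70.7% and 35.9%, lay above that list in GF+HFM and below it in CV+HFM, and the difference was not tested.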

How the data were processed

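HNF4A was measured by ChIP-seq in 4 GF+HFM and 4 CV+HFM libraries, grouped by the labels. Alignment by the authors was to mm9 (Bowtie2), followed by calling of narrow peaks in each library by MACS2 2.1.1.20160309 with an input control at a false discovery rate under 5%, per the study's methods and the submitters' processing notes. The deposited lists hold coordinates and names only, with no score, count or signal, so depth is unknown and its part in list length was not tested. The series holds 1 GF+HFM and 1 CV+HFM input library, and the part of the control in list length was not tested either. RNA and H3K27ac libraries of the series were not analysed here. The values of 1 member gene are counted in the totals and not reported here.

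Peaks sharing 1 bp were merged (pandas 2.3.3). Gene starts were the outermost annotated starts, and exon and intron numbers follow the transcript with most exons. Calls were compared by Fisher's exact test (scipy 1.17.1) over all sites and all genes, and widths with limma 3.58.1, which was tested on simulated data. The labels carry no animal identifiers, but the paper states that HNF4A replicates were individual mice. The limma test of widths rests on the spread between these libraries, whereas Fisher's test uses only the number of lists with a call. Genes are named where a site was called in all 8 lists, in 4 lists against 0, in more CV+HFM lists, or where they had most or 0 sites, were isoforms of 1 subunit or core subunits. Other genes named (accessory subunits with start sites, assembly factors, Atp5j) were chosen after their values were seen. The members and lists were chosen with earlier results of these data known. Alternatives covered windows, list thresholds, peak widths, members, left-out libraries and motif windows.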

Additional observations from a re-analysis of the deposited data

Results flagged for a closer look

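The peaks that CV+HFM replicate 4 called at members had a median width at the 33.5th percentile of the widths in that library, against 53.2, 54.5 and 53.6 in CV+HFM replicates 1, 2 and 3. This library stood apart from the other 3 by Dixon's test at 95%, which flags about 1 in 20 groups by chance. The value rests on the 9 member sites that this library called, and it had the shortest list, with 4533 peaks of a median width of 103 bp. In the GF+HFM libraries the same percentile was 53.3, 40.7, 46.5 and 48.1.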

How the results depend on the processing

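Of 149 recomputed values 110 stayed within 1.5 times the reported count, or within the interval of the motif share, and 39 did not. The 110 include counts of 0 by Fisher's test and counts of 0 member sites in the width test. With so few lists, Fisher's test can pass a site only if most sites reach the smallest p it allows, so its counts had little room to change. With equal numbers of widest peaks there were 14 member sites in GF+HFM and 16 in CV+HFM, against 3544 and 3423 sites at all protein-coding genes, while 12 member genes had a site in each and 0 sites were called in 4 against 0 lists. With the gene body alone the member sites were 64 in GF+HFM and 30 in CV+HFM. Within 1 kb of the start 43 genes had a GF+HFM site, the sites were 48 and 22, and 1 site was called in 4 against 0 lists. Among peaks of at least 300 bp 18 genes had a CV+HFM site and the sites were 71 and 20. With 50% of the merged site covered, CV+HFM counts were 20 genes and 21 sites, and 6 sites were called in 4 against 0 lists. In at least 1 of 4 lists CV+HFM had 55 genes and 87 sites, and in at least 3 of 4 lists 21 genes and 27 sites. An exact motif share of 12.7% became 50.0% with 1 mismatch, an alternative chosen after seeing the data, as were those without Atp5o, without CV+HFM replicates 2 and 4 and without sites over other genes' starts, which moved no count by over 1.5 times.

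Leaving out each library in turn gave 21 to 33 genes and 27 to 50 sites for CV+HFM, the lowest without CV+HFM replicate 1. The sites called in all GF+HFM and no CV+HFM lists then ranged from 3 to 19 at members and from 1271 to 4871 over all sites, the highest in both without CV+HFM replicate 1. Sites past the width test ranged from 0 to 21, and were 0 with log2 width and 0 of the 20 sites left with 50% coverage. Of those 20 sites 0 were member sites. Replicate numbers are shared between groups, and deviations of same-numbered libraries correlated at 0.0534, 0.0746, -0.0776 and 0.138, and not every pair had its highest correlation with its own number, so the numbers were not taken as pairs. With the replicate number as a block 4 sites passed, as without it, and 0 member sites. Fisher's test passed 0 sites and 0 genes in every alternative run, an outcome that so few lists nearly fix in advance. The lists carry no depth, and their length differs between the conditions.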
